A study of Rattus norvegicus with 8 samples.

Results

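Genes that make a neurotransmitter or load it into vesicles were examined in rat spinal cord cultures given fibroblast growth factor 9 (FGF9). The set was chosen by name and held 8 genes: Gad1, Gad2, Slc32a1 and Slc6a5 for the inhibitory transmitters GABA and glycine, Slc17a6 and Slc17a7 for glutamate, and Chat and Slc18a3 for acetylcholine. A member was any array feature whose platform annotation gave that symbol and no other. This found 7 of the 8 genes, with 1 feature each, among 14506 genes measured; Chat had no such feature and was not analysed here.

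All samples were total RNA of Sprague Dawley myelinating cultures, grown from dissociated spinal cords of rat embryos, which hold neurons, oligodendrocytes and astrocytes. Cultures received human FGF9 at 100 ng/ml or were left untreated, and were collected after 24 h or 10 days. Each of the 4 groups (FGF9 at 24 h, untreated control at 24 h, FGF9 at 10 days, untreated control at 10 days) had 2 arrays, 8 in all. Titles and cell type entries call every sample a myelinating culture, whereas the source entry names astrocytes derived from neurospheres. The 19 pan-neuronal markers averaged between 9.87 and 11.41 on the 8 arrays, the 12 myelin and oligodendrocyte markers between 8.70 and 11.21 and the 13 astrocyte markers between 10.40 and 11.77. The median over all genes measured ran from 7.51 to 7.71 on these arrays.

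GABA is made from glutamate by 2 glutamate decarboxylases, the products of Gad1 and Gad2. The vesicular inhibitory amino acid transporter, Slc32a1, carries both GABA and glycine into synaptic vesicles, and Slc6a5 is the plasma membrane transporter that returns glycine to glycinergic terminals. Glutamate is loaded by vesicular glutamate transporters, of which Slc17a6 is the form of most excitatory neurons inside the spinal cord and Slc17a7 that of the cerebral cortex and of some sensory afferents. Acetylcholine, the transmitter of motor neurons, is made by choline acetyltransferase (Chat) and loaded by the vesicular acetylcholine transporter (Slc18a3), whose gene lies inside the Chat gene.

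The 250 bases before the RefSeq start (build GRCr8) of 4 members are shown, 3 of them lower and Slc18a3 higher with FGF9 at 10 days. Gad1 and Slc32a1, which were also lower, are not shown. Both strands were searched, and capitals mark the matches. The motifs were the TATA box with the letters TATAAA, the GC box with the letters GGGCGG, the AP-1 site with the letters TGANTCA, the ETS site with the letters CCGGAAG, and the left and right parts of the site of the neuronal repressor REST, searched as CAGCACC for the left part and as GGACAG for the right part. No 2 different motifs overlapped in these windows.
Gad2 (chr17:89671468-89671717, plus strand): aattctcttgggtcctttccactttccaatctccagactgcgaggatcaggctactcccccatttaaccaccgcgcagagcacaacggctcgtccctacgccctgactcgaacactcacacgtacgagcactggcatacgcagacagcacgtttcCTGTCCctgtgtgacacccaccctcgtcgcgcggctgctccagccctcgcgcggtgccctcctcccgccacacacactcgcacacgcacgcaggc
Slc6a5 (chr1:108781303-108781552, plus strand): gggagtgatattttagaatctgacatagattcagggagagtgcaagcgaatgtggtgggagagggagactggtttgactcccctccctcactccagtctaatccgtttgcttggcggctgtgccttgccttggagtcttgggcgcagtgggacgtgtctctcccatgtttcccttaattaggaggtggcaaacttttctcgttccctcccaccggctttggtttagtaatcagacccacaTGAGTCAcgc
Slc17a6 (chr1:110348197-110348446, plus strand): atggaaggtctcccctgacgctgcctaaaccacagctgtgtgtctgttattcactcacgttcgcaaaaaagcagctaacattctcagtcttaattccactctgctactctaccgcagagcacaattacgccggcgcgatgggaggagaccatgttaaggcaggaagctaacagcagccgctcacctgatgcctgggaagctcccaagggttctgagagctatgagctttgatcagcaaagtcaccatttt
Slc18a3 (chr16:7722815-7723064, minus strand): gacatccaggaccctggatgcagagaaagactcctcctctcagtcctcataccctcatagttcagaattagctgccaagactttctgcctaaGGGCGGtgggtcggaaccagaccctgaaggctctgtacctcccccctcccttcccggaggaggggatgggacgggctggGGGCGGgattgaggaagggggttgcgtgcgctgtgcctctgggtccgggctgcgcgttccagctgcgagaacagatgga
Promoters of all 8 genes were in the RefSeq table. The GC box letters stood in 4 of them (Gad1, Slc32a1, Slc17a7 and Slc18a3) and in 30.5% of 33469 rat promoters. TATAAA stood in that of Gad1 alone (12.9% of all promoters), the AP-1 letters in that of Slc6a5 alone (6.34%), and the ETS letters in that of Chat alone (7.27%). The right part of the REST site stood in Gad2 and Slc17a7 (18.2%) and the left part in none of the 8 (5.43%). The GC content of the 4 windows shown was 62.0% for Gad2, 52.4% for Slc6a5, 50.8% for Slc17a6 and 61.6% for Slc18a3, against a median of 51.2% over all promoters. None of these letter strings stood in all 5 genes that were lower with FGF9 at 10 days. A match describes the letters in the window and is not a measured binding site.

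Expression values are on a log2 scale, and differences are FGF9 minus control. An FGF9 array and the control array that carries its replicate number are called a pair. The array names of a pair begin alike, with CL1 in the first pair of 24 h, AA1 in the second pair of 10 days and CL2 in the remaining pairs. The 2 AA1 arrays stood apart, with correlations across features of 0.897 to 0.940 with the other 6 arrays, which correlated with one another at 0.962 to 0.989. Each FGF9 effect was fitted in limma over all 14506 genes with adjustment for all of them, without the pairs and with the pair as a block (the replicate block); the difference is the same in both fits and only its standard error (SE) changes. Whether replicates were separate cultures is not in the labels, and p-values therefore cover no more than the spread seen among the arrays, which may be technical.

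The effect of FGF9 after 10 days was the main comparison. All 4 inhibitory genes and Slc17a6 were lower in FGF9 cultures in both pairs (as were 30% of all genes), at 45.9% to 55.9% of the control level. Slc18a3 was higher in both pairs (as were 33.2% of all genes) by 0.77 on the log2 scale, and Slc17a7 stayed near the bottom of the scale in both groups. Slc18a3 was low on the scale too, at percentile 19.9 of genes by mean level over all arrays, against 19.2 for Slc17a7. With the replicate block 5 of the 7 members fell and 1 rose (limma, adjusted p under 0.05), where 6.43% of all genes passed, 3.31% falling and 3.12% rising. Without the block 0 of 7 passed, as did 0% of all genes; 2 of 7 members and 5.63% of all genes had an unadjusted p under 0.05. In bulk RNA, fewer neurons of a type and less transcript per neuron cannot be told apart.

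Gad1 stood at 9.14 and 9.71 in FGF9 cultures at 10 days (pairs 1 and 2), against 10.03 and 10.49 in controls. Both FGF9 arrays lay below both control arrays, which held for 11.3% of all genes. The difference was -0.84 ± 0.33 (SE, n = 2 per group; adjusted p = 0.871) and ± 0.14 with the block (adjusted p = 0.0316), or 55.9% of control. Gad2, whose enzyme is found mostly at nerve terminals, stood at 9.47 and 10.49 in FGF9 cultures, against 10.43 and 11.79 in controls. Here the groups overlapped, since the FGF9 array of pair 2 was above the control array of pair 1, although each pair was lower with FGF9 (differences of -0.95 and -1.30). The difference of -1.12 ± 0.60 (adjusted p = 0.9999; ± 0.15 and adjusted p = 0.0210 with the block) was the lowest among the 7 members, and 1.30% of all genes had a lower one.

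Slc32a1, the vesicular carrier shared by GABA and glycine, stood at 7.54 and 9.04 in FGF9 cultures at 10 days, against 8.70 and 9.62 in controls. The groups overlapped, and the pairs differed in size, with -1.15 in pair 1 and -0.58 in pair 2. Its mean difference was -0.87 ± 0.64 (adjusted p = 0.9999; ± 0.17 and adjusted p = 0.0454 with the block). Slc6a5, the marker of glycinergic neurons, stood at 8.22 and 10.17 in FGF9 cultures, against 9.34 and 11.19 in controls. Its groups overlapped as well, because pair 2 was higher than pair 1 by 1.95 in FGF9 and 1.84 in control cultures, more than the FGF9 differences of -1.13 and -1.02 in the pairs. The difference of -1.07 ± 0.89 (adjusted p = 0.9999; ± 0.14 and adjusted p = 0.0199 with the block) rests on taking the arrays as pairs.

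**Figure D1:**
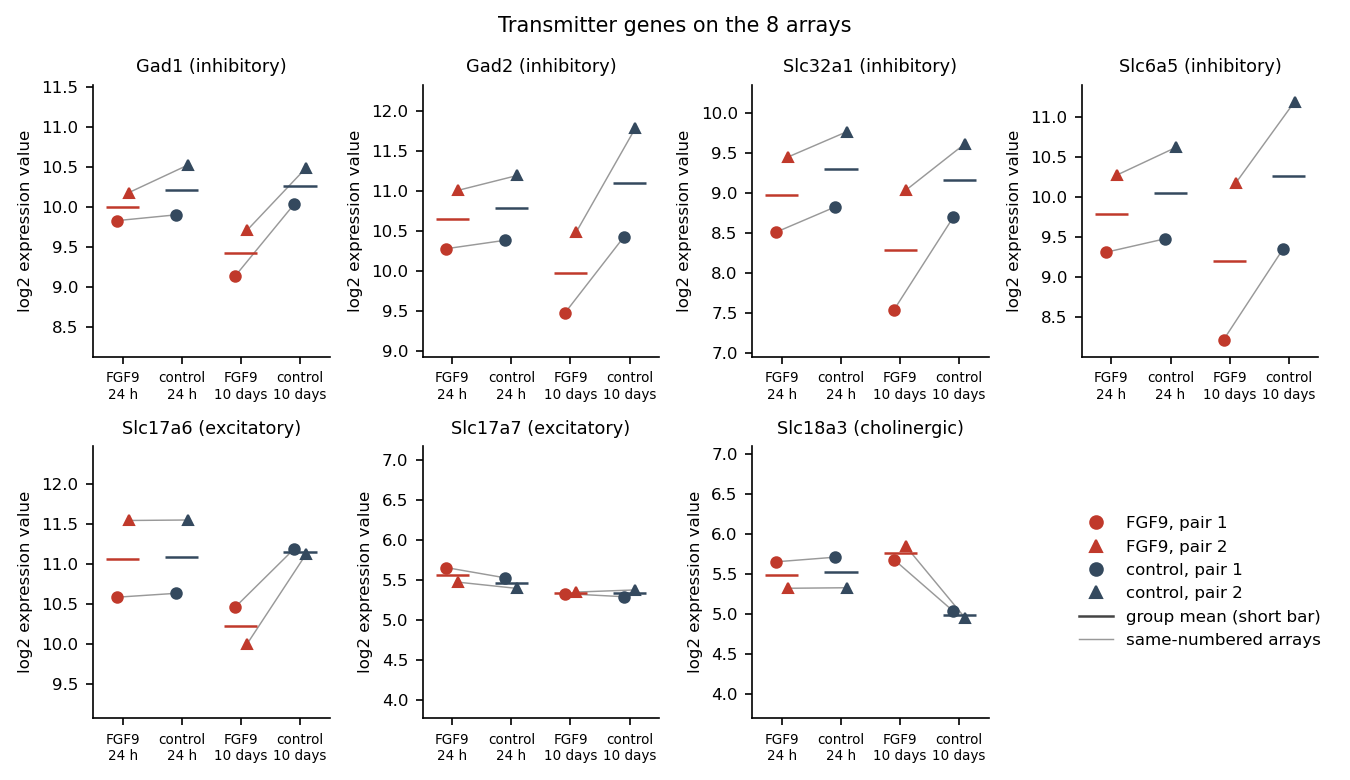
Log2 expression value (vertical axis, the same span of 3.4 log2 units in each panel) of the 7 measured transmitter genes on each array, with FGF9 arrays in red, control arrays in dark blue, circles for pair 1, triangles for pair 2, a short bar for the group mean and a grey line joining a pair. At 10 days the lines of Gad1, Gad2, Slc32a1, Slc6a5 and Slc17a6 all climb from FGF9 to control, that of Slc18a3 descends, and Slc17a7 stays between 5.29 and 5.65 on all arrays.

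Among the glutamate transporters, Slc17a6 stood at 10.46 and 9.99 in FGF9 cultures at 10 days, against 11.19 and 11.12 in controls. The 2 groups did not overlap, and the controls of the 2 pairs were close to each other, unlike those of the inhibitory genes. The difference was -0.93 ± 0.43 (adjusted p = 0.962; ± 0.15 and adjusted p = 0.0295 with the block), -0.73 in pair 1 and -1.12 in pair 2. Slc17a7 stood at 5.33 and 5.35 in FGF9 cultures, against 5.29 and 5.37 in controls. These values were low on the scale, at percentile 19.2 of genes by mean level, and the groups overlapped. The difference was 0.01 ± 0.17, with a 95% interval of -0.31 to 0.32 in the fit with the block, and so a change of the size seen for Slc17a6 lay outside the interval; at such low values a true difference can be understated.

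The acetylcholine transporter Slc18a3 went the other way. It stood at 5.68 and 5.85 in FGF9 cultures at 10 days, against 5.04 and 4.96 in controls. Both FGF9 arrays lay above both controls, as for 14.9% of all genes. The control values lay close to the 5th percentile of features on the same arrays (4.84 and 4.81), so they are not shown to be above background and no fold is given. The difference was 0.77 ± 0.22 (adjusted p = 0.665; ± 0.14 and adjusted p = 0.0370 with the block). Between 24 h and 10 days the same feature differed by 0.27 ± 0.22 in FGF9 cultures (10 days minus 24 h) and by -0.52 ± 0.22 in controls, and neither passed. Slc18a3 was the only cholinergic member measured, so no statement on the class rests on more than 1 feature.

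The calls at 10 days depended on which pairs were in the fit with the block, an alternative chosen after seeing the data. Without either 24 h pair 2 of 7 members passed in limma (Gad2 and Slc6a5), and 3.23% of all genes, while Gad1 did not (adjusted p = 0.0609). For 10 days these 2 fits are the same test, since the spread then comes from the 10-day pairs alone. Without 1 of the 10-day pairs a single array per group is left at that time. No spread at 10 days is then measured, so only differences are given. Without pair 1 they were -0.78 for Gad1, -1.30 for Gad2, -0.58 for Slc32a1 and -1.02 for Slc6a5. Slc17a6 then stood at -1.12, Slc17a7 at -0.03 and Slc18a3 at 0.89. Without pair 2, the AA1 pair, they were -0.90, -0.95, -1.15, -1.13, -0.73, 0.04 and 0.64 in the same order. With the pair as a random block 3 passed (Gad1, Slc17a6 and Slc18a3), and 4.17% of all genes. Leaving out 1 array of 10 days breaks a pair and was done without the block. It moved the inhibitory differences most. Without the FGF9 array of pair 1 Slc6a5 stood at -0.10 and Slc32a1 at -0.12, and without that of pair 2 at -2.05 and -1.61. Gad2 stood at -1.81 without the control array of pair 1 and at -0.44 without that of pair 2.

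After 24 h of FGF9 the differences were small. The 4 inhibitory genes were lower in both pairs, as were 32.9% of all genes (31.8% were higher in both), by a median of -0.23 against a median of 0.00 over all genes. Slc32a1 stood at 8.51 and 9.45 in FGF9 cultures, against 8.83 and 9.77 in controls, the largest difference of the 7 at -0.32 ± 0.64 (-0.31 and -0.32 in the pairs). Slc6a5 stood at 9.31 and 10.27 in FGF9 cultures, against 9.47 and 10.62 in controls (-0.26 ± 0.89). In both genes the step between pairs, 0.94 and 0.94 for Slc32a1 and 0.97 and 1.15 for Slc6a5 in FGF9 and control cultures, was larger than the step between treatments.

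Gad1 stood at 9.83 and 10.18 in FGF9 cultures at 24 h, against 9.90 and 10.52 in controls (-0.21 ± 0.33). Gad2 stood at 10.28 and 11.01 in FGF9 cultures, against 10.39 and 11.20 in controls (-0.15 ± 0.60). Slc17a6 stood at 10.58 and 11.54 in FGF9 cultures, against 10.63 and 11.55 in controls (-0.03 ± 0.43). FGF9 and control arrays of Slc17a6 thus nearly coincided within each pair at this time, although the pairs differed by 0.96 and 0.92. Slc17a7 (5.65 and 5.47 in FGF9 cultures, against 5.52 and 5.39 in controls) and Slc18a3 (5.66 and 5.33 in FGF9 cultures, against 5.71 and 5.33 in controls) differed by 0.10 ± 0.17 and -0.03 ± 0.22.

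At 24 h both FGF9 arrays lay below both control arrays for 14.5% of all genes and above both for 17.5%. The groups overlapped for all 7 members. None passed in limma without the block or with it, where 0% of all genes passed, and 0 of 7 had an unadjusted p under 0.05 in either fit, a level that 1.93% of all genes reached unblocked and 12.4% reached with the block. With the block the adjusted p of the members ran from 0.502 (Slc6a5) to 0.967 (Slc17a6), and the 95% intervals were -0.56 to 0.14 for Gad1, -0.51 to 0.22 for Gad2, -0.74 to 0.11 for Slc32a1, -0.59 to 0.08 for Slc6a5, -0.40 to 0.35 for Slc17a6 and -0.37 to 0.31 for Slc18a3. Each of these 6 intervals leaves out the mean difference of the same gene at 10 days, but that mean has an error of its own. The direct test of the change between times, given below, passed for no member.

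**Figure D2:**
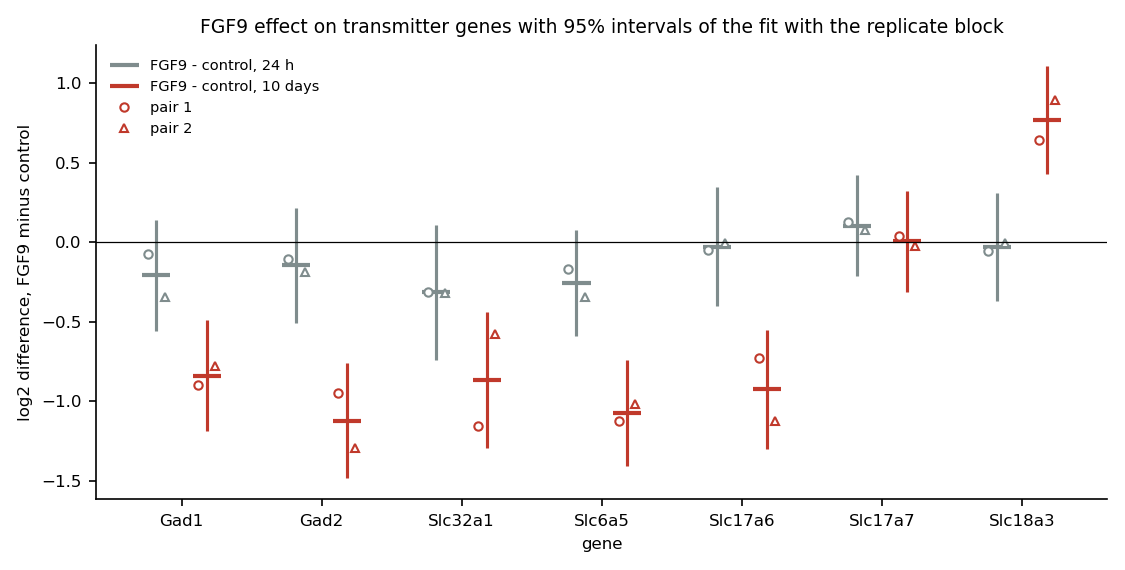
Difference of the log2 expression value, FGF9 minus control (vertical axis), for each measured transmitter gene at 24 h (grey) and 10 days (red). Horizontal bars are the mean of 2 pairs, open circles pair 1, open triangles pair 2 and vertical lines the 95% interval of the limma fit with the replicate block; at 10 days 6 of 7 intervals leave out 0 and at 24 h all 7 include it.

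The difference between the FGF9 effects at 10 days and at 24 h was tested directly. It was -0.98 ± 0.84 for Gad2, -0.90 ± 0.61 for Slc17a6, -0.82 ± 1.25 for Slc6a5, -0.63 ± 0.47 for Gad1, -0.55 ± 0.91 for Slc32a1, -0.10 ± 0.24 for Slc17a7 and 0.80 ± 0.31 for Slc18a3. No member passed over all genes in limma, without the block (1 of 7 with an unadjusted p under 0.05, Slc18a3) or with it (5 of 7, all but Slc32a1 and Slc17a7; smallest adjusted p = 0.237, Gad2). Of all genes 0% passed without the block (1.9% with an unadjusted p under 0.05) and 0.0483% with it (12.9% with an unadjusted p under 0.05). A larger effect at 10 days than at 24 h was thus not established for any single transmitter gene.

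Over time in culture, the 5 genes high on the scale differed in controls by less than the SE. The difference of 10 days against 24 h in controls was 0.05 ± 0.33 for Gad1, 0.32 ± 0.60 for Gad2, -0.14 ± 0.64 for Slc32a1, 0.22 ± 0.89 for Slc6a5 and 0.06 ± 0.43 for Slc17a6. In FGF9 cultures it was -0.58 ± 0.33 for Gad1, -0.66 ± 0.60 for Gad2, -0.69 ± 0.64 for Slc32a1, -0.60 ± 0.89 for Slc6a5 and -0.84 ± 0.43 for Slc17a6. In neither series did a member pass in limma, as was so for 0% of all genes. An unadjusted p under 0.05 was found for 0 of 7 members in each, against 9.86% of all genes in FGF9 cultures and 2.86% in controls. The 2 time points were not matched by replicate, so these values carry the difference between pairs in full.

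Ordered by group mean, FGF9 at 10 days was the lowest of the 4 groups for each of these 5 genes. Gad1 averaged 10.00 ± 0.25 in FGF9 cultures and 10.21 ± 0.44 in controls at 24 h, then 9.42 ± 0.40 in FGF9 cultures and 10.26 ± 0.32 in controls at 10 days (SD, n = 2 each). Slc17a6 averaged 11.06 ± 0.68 in FGF9 cultures and 11.09 ± 0.65 in controls at 24 h, then 10.23 ± 0.33 in FGF9 cultures and 11.15 ± 0.05 in controls at 10 days. The 3 other groups of these 2 genes lay closer together than 1 SD of the most variable of them. For Gad2, Slc32a1 and Slc6a5 the SD within FGF9 cultures at 10 days was 0.72, 1.06 and 1.38, so that even the lowest group was not apart from its neighbour by the spread of single arrays.

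The inhibitory genes varied together. Across the 8 arrays their 6 pairwise correlations were 0.877 to 0.970, while Slc17a6 correlated with them at 0.452 to 0.744. Slc17a7 and Slc18a3 correlated with the other 5 at -0.766 to 0.052. These values describe 8 arrays that share treatments and pairs. At 10 days the inhibitory genes of pair 2 stood above those of pair 1 by 0.57 (Gad1) to 1.95 (Slc6a5) in FGF9 cultures and by 0.45 (Gad1) to 1.84 (Slc6a5) in controls. For Slc17a6 pair 2 minus pair 1 was instead -0.46 in FGF9 cultures and -0.07 in controls.

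The genes whose values over the 8 arrays were most like the mean of the 4 inhibitory genes, among 7911 genes with an SD of at least 0.3, were Sidt1 (r = 0.993), Snap91, which acts in the recycling of synaptic vesicles (0.991), Map9, of the microtubules (0.991), LRRTM1, a synaptic adhesion protein (0.991), and Ppfia3, a scaffold of the presynaptic active zone (0.989). Their FGF9 differences at 10 days were -0.89, -0.79, -0.72, -1.32 and -1.07. Most like the mean of the 2 glutamate transporters were Rai2 (0.974), Lancl2 (0.965), Wnt2, a secreted signal (0.963), Zic1, a transcription factor of the dorsal neural tube (0.955), and Strbp (0.954). That mean largely followed Slc17a6 (SD 0.55 over the arrays), since Slc17a7 was nearly flat (SD 0.12). The 2 transporters correlated at -0.06, so these genes are not neighbours of both. Most like Slc18a3 were Kcnn4, a calcium-activated potassium channel (0.962), Abtb2 (0.958), Rhbdf1 (0.952), Ltbr, the lymphotoxin beta receptor (0.937), and Lmo7 (0.926), with differences at 10 days of 0.79, 1.51, 1.41, 0.73 and 0.96. The 3 groups of neighbours had no gene in common. Neighbours were chosen by likeness over the same 8 arrays, so the sign of their differences follows largely from the choice and is no separate result.

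Pan-neuronal markers were set beside the members. At 10 days 18 of 19 were lower in FGF9 cultures in both pairs, as were 30% of all genes, with a median difference of -0.74 (-0.71 and -0.75 in the pairs). With the block 10 of 19 fell, against 3.31% of all genes, and without it 0, as for all genes. With the pair as a random block 1 fell (Nefm), against 217 of all 14506 genes. Those with the smallest p were the neurofilament genes Nefm (-1.33 ± 0.70; ± 0.15 with the block) and Nefh (-1.19 ± 0.81; ± 0.13), Rbfox3, a nuclear protein of mature neurons (-1.14 ± 1.01; ± 0.14), and Syn1, of synaptic vesicles (-0.94 ± 1.09; ± 0.14), each with a block adjusted p between 0.0173 and 0.0266. After subtraction of the neuronal median of the same pair, the differences in pairs 1 and 2 were -0.18 and -0.03 for Gad1, -0.24 and -0.55 for Gad2, -0.41 and -0.27 for Slc6a5, -0.44 and 0.17 for Slc32a1, -0.01 and -0.37 for Slc17a6, 0.75 and 0.72 for Slc17a7, and 1.36 and 1.64 for Slc18a3. Slc17a7 stood at 0.04 and -0.03 before the subtraction of -0.71 and -0.75, which raises every gene by the size of those medians, Slc18a3 included. The inhibitory median was -0.97 and that of all genes 0.02. The transmitter genes that fell thus lay inside the range of the neuronal markers (-1.33 to 0.12), and Slc18a3 lay above all 19. The part of a general neuronal change in the members' differences was not tested.

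At 10 days the 13 astrocyte markers had a median difference of 0.05 with 5 lower, 2 rising and 0 falling with the block, and the 12 oligodendrocyte markers a median of 0.15 with 5 lower, 2 rising and 0 falling. The 10 microglia markers had a median of -0.09 with 0 passing, and the 9 fibroblast and pericyte markers one of 0.20 with 2 rising and 0 falling. At 24 h neuronal markers had a median of -0.25 (18 of 19 lower, 0 passing). At this time 12 of 13 astrocyte markers (median -0.58) and 12 of 12 oligodendrocyte markers (median -0.60) were lower and none passed in either fit. Of all 14506 genes 7292 were lower at 24 h and 6789 at 10 days, where 3.12% rose and 3.31% fell with the block. Mean oligodendrocyte levels differed between pairs far more than by treatment, at 10.61 and 8.70 in FGF9 cultures, against 11.21 and 9.42 in controls at 24 h. Mean neuronal levels ran the other way, at 10.17 and 10.86 in FGF9 cultures, against 10.26 and 11.18 in controls. Their part in the members' differences between pairs was not tested.

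**Figure D3:**
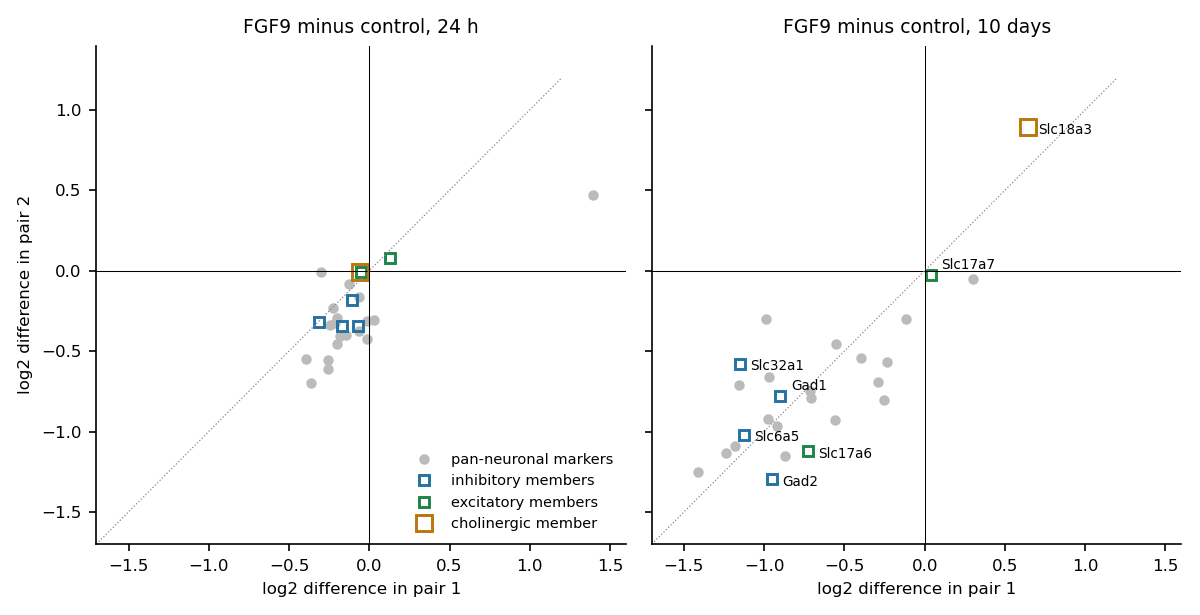
FGF9 minus control in pair 1 (horizontal axis) against pair 2 (vertical axis), as log2 differences, at 24 h (left) and 10 days (right), for the 7 measured transmitter genes (squares) and 19 pan-neuronal markers (grey points); the dotted line marks equal differences. At 10 days the 4 inhibitory genes and Slc17a6 lie at the lower left among the neuronal markers, Slc17a7 lies near 0 and Slc18a3 at the upper right (0.64 and 0.89).

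Other genes that handle the same transmitters were examined as lists. For comparison with these and the lists below, 6789 of all 14506 genes were lower at 10 days. With the block 3.31% of all genes fell and 3.12% rose at that time. Of 6 measured genes of GABA and glycine handling 4 were lower and 2 higher at 10 days (median -0.40), and none passed in either fit. The differences were -0.69 ± 0.54 for Abat, which breaks down GABA (block adjusted p = 0.0578), and -0.58 ± 0.45 for Gphn, gephyrin, the scaffold of inhibitory synapses (block adjusted p = 0.133). The transporters found largely on astrocytes stood on the other side, at 1.06 ± 0.59 for the GABA carrier Slc6a11 (block adjusted p = 0.0721) and 0.42 ± 0.79 for the glycine carrier Slc6a9 (block adjusted p = 0.133). Of 11 genes of glutamate handling 7 were lower and 4 higher (median -0.21) and none passed. Slc1a3, the glutamate uptake carrier of astrocytes, differed by 0.66 ± 0.38 (block adjusted p = 0.0643), Got1, an aminotransferase, by -0.52 ± 0.31, and the glutamine carriers Slc38a2 and Slc38a1 by -0.63 ± 0.39 and -0.48 ± 0.35.

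Of 7 further genes of acetylcholine handling 1 fell and 1 rose with the block at 10 days, and none passed without it or with the pair as a random block. Slc5a7, the high-affinity choline transporter of cholinergic terminals, stood at 4.96 and 6.20 in FGF9 cultures, against 5.90 and 7.43 in controls, and fell by 1.09 ± 0.61 (± 0.23 with the block, adjusted p = 0.0487). The FGF9 array of pair 1 was again near the 5th percentile of its features (4.89). Slc44a1, a choline transporter of many cell types, stood at 12.12 and 12.18 in FGF9 cultures, against 11.49 and 11.36 in controls, and rose by 0.72 ± 0.49 (± 0.14 with the block, adjusted p = 0.0408). Ache, which degrades acetylcholine, and Slc10a4, of cholinergic and monoaminergic vesicles, differed by -0.53 ± 0.55 (block adjusted p = 0.0693) and -0.36 ± 0.30 (block adjusted p = 0.179).

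Among 10 other vesicular transporters, vesicle proteins and proton pump subunits 9 were lower at 10 days (median -0.42), and with the block 1 rose and 2 fell (none passed without it). Slc17a9, the vesicular nucleotide transporter and a relative of the glutamate transporters, stood at 7.04 and 8.22 in FGF9 cultures, against 5.85 and 6.14 in controls. It rose by 1.64 ± 0.39 (± 0.24 with the block, adjusted p = 0.0237), with no overlap between groups. Sv2b, a synaptic vesicle protein, fell by 1.27 ± 0.24 (block adjusted p = 0.0284) and Atp6v1g2, a neuronal subunit of the pump that drives vesicle loading, fell by 0.78 ± 0.74 (± 0.15 with the block, adjusted p = 0.0428, but 0.181 with a random block); Atp6v1b2 differed by -0.58 ± 0.30 (block adjusted p = 0.0574). The proton gradient made by this pump powers all the vesicular transporters named here.

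Monoamine genes had a median of -0.13 at 10 days with 9 of 14 lower. Maob, the monoamine oxidase found in astrocytes, fell with the block and not without it (-1.24 ± 0.25; adjusted p = 0.0220), and Tph1 (0.49 ± 0.24), Slc6a3 (-0.42 ± 0.16) and Slc18a1 (-0.23 ± 0.23) did not pass. Of 14 spinal neuropeptide genes 8 were lower (median -0.08) and none passed, with Calca at 0.71 ± 0.44, Gal at 0.35 ± 0.38, Nts at -0.42 ± 0.54 and Tac1 at -0.26 ± 0.61. Of 14 transcription factors that mark transmitter classes 11 were lower (median -0.30), and 2 fell with the block but none without it or with the pair as a random block. These were Pax8 (-1.01 ± 0.87; ± 0.19, adjusted p = 0.0401) and Lhx5 (-0.77 ± 0.69; ± 0.15, adjusted p = 0.0445), both of inhibitory interneurons; Pax2 (-0.62 ± 0.48) and Lbx1 (-0.79 ± 0.38) did not pass (block adjusted p = 0.0643 and 0.0805).

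**Figure D4:**
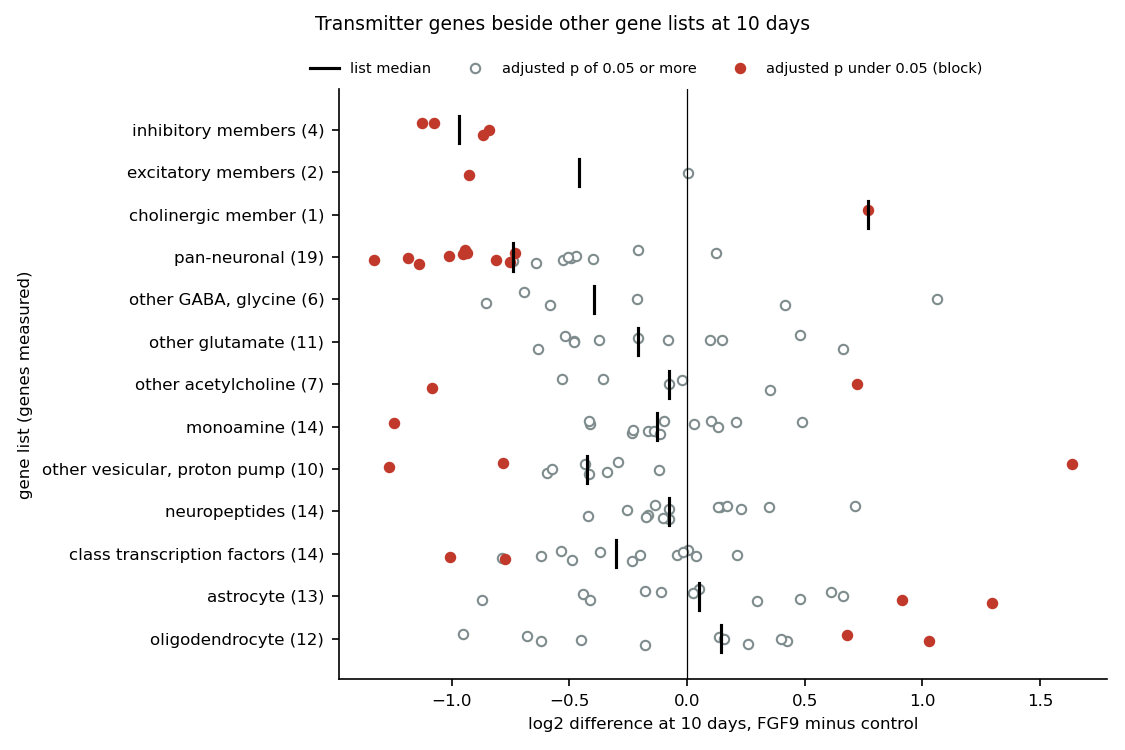
Log2 difference at 10 days, FGF9 minus control (horizontal axis), of each gene in the transmitter set and in 10 other lists (rows, with the number of genes measured). Filled red points had an adjusted p under 0.05 in the limma fit with the replicate block, open grey points did not, and black bars are list medians; the inhibitory members have a median of -0.97, the pan-neuronal markers of -0.74 and the astrocyte markers of 0.05.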

How the data were processed

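Per the labels' protocols, biotin-labelled RNA was hybridised to Affymetrix Rat Gene 1.0 ST arrays. The deposited values were taken as log2 from their range; the submitters' processing notes name Partek 6.5 and GCRMA. Of 29214 features, 15310 had 1 symbol in the platform annotation, 323 several and 13581 none; the feature with the highest mean stood for each of 14506 genes.

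Groups and replicate numbers came from the sample titles. limma 3.58.1 (R 4.3.3; lmFit, eBayes) was fitted to all 8 arrays with 4 group means, p-values were adjusted over all genes by Benjamini-Hochberg (threshold 0.05), and a further fit took the pair as a fixed block. Numbers were taken as pairs because deviations from the group mean correlated between arrays of one number, at 0.757 (24 h) and 0.819 (10 days). The fits were tested on simulated data.

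The members and the 12 other lists (152 entries, 139 measured) were chosen with earlier results of these data known. Named were the members, up to 4 genes of a list with the smallest block p at 10 days, and the 5 genes most correlated with each class mean; genes of the glial lists are given as counts. The number of arrays limits the precision. Alternatives were the block (fixed or random), leaving out each array, quantile normalization, array median subtraction, a filter on low genes, feature averaging and an intensity trend. Those other than the block were fitted without it.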

Additional observations from a re-analysis of the deposited data

Results flagged for a closer look

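Slc18a3 and 4 named genes of other lists had one sign in both pairs at 24 h and the opposite sign in both pairs at 10 days. The change in the FGF9 effect, 10 days minus 24 h, was 0.80 ± 0.31 for Slc18a3 (-0.06 and -0.01 in the pairs at 24 h, 0.64 and 0.89 at 10 days), 1.48 ± 0.84 for the GABA carrier Slc6a11, 0.97 ± 1.11 for the glycine carrier Slc6a9, 0.89 ± 0.54 for the glutamate carrier Slc1a3 and 0.60 ± 0.33 for Tph1, of serotonin synthesis. The test of this change in limma passed for none of them, with an adjusted p of 0.9999 without the block and between 0.237 and 0.298 with it. All 5 changed from lower to higher, but some of the lower values were close to 0. Only the members, the genes chosen per list by a small block p at 10 days and the neighbours were screened. Both the count and the shared direction therefore depend on that choice. Among listed genes not screened, Slc1a2 (-0.51 and -1.11 at 24 h, 0.29 and 0.67 at 10 days) and Got2 (-0.10 and -0.02, then 0.25 and 0.05) switched the same way. Dbh (0.16 and 0.19, then -0.09 and -0.25) switched the opposite way. In pair 1 at 24 h Slc1a3 stood at -0.009 and Slc6a11 at -0.042, and Slc18a3 was close to 0 in both pairs. How common such a switch was among all genes was not tested. Of all genes 32.9% were lower in both pairs at 24 h, and 33.2% were higher in both at 10 days. Slc6a11, Slc6a9 and Slc1a3 are carriers found largely on astrocytes, and the astrocyte list, which includes Slc1a3, moved with them: the same change was above 0 for 12 of its 13 measured markers, with a median of 0.89 and none passing. This was not particular to astrocyte markers. The change was above 0 for 10 of 12 oligodendrocyte markers (median 0.66) and 7 of 9 fibroblast and pericyte markers (median 0.56). It was above 0 for 5 of 10 microglia markers (median -0.02) and 2 of 19 neuronal markers (median -0.52). Over all genes the change was above 0 for 7295 of 14506. The part of any of these cell types in the values of the 5 genes was not tested.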

How the results depend on the processing

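Without the block 0 genes passed at 10 days; 933 passed with the replicate block (6 of 7 members), 605 with a random block (3 members) and 6 with array medians subtracted (0 members). With the block and without 1 pair, chosen after seeing the data, the counts at 10 days were 469 without either 24 h pair (2 members), 1506 without pair 1 at 10 days (4) and 569 without pair 2 at 10 days (3). At 24 h the random block gave 1 gene and the block without either 10-day pair 237, with 0 members. For the difference of effects the counts were 7 with the block, 10 with a random block, and 1, 322 and 9 with the block but without pair 1 at 24 h, pair 1 at 10 days and pair 2 at 10 days, again with 0 members; in FGF9 cultures over time 4 genes passed with array medians subtracted. The block changed no other member's call.

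The fits with 1 array left out had no block, and without the block 0 members passed with all arrays in. They are therefore no check on the calls made with the block, and only their differences are given. Leaving out an array breaks a pair at either time. The differences at 10 days then ran from -2.05 to -0.10 for Slc6a5, -1.61 to -0.12 for Slc32a1, -1.81 to -0.44 for Gad2, -1.13 to -0.55 for Gad1, -1.16 to -0.69 for Slc17a6 and 0.68 to 0.85 for Slc18a3. The sign turned for Slc17a7 (-0.037 to 0.048), which also turned with quantile normalization (-0.016), array medians subtracted (-0.030) and the block without pair 1 at 10 days (-0.027). At 24 h the sign turned for Gad1 (-0.52 to 0.10), Gad2 (-0.55 to 0.26), Slc32a1 (-0.79 to 0.15), Slc6a5 (-0.83 to 0.32), Slc17a6 (-0.51 to 0.45; 0.019 with array medians subtracted) and Slc18a3 (-0.22 to 0.16; 0.015 with array medians subtracted). The difference of effects turned for Slc32a1 (-1.30 to 0.20) and Slc6a5 (-1.79 to 0.16). In controls over time it turned for Gad1 (-0.26 to 0.36), Gad2 (-0.37 to 1.00), Slc6a5 (-0.70 to 1.14), Slc17a6 (-0.40 to 0.52) and Slc32a1 (-0.61 to 0.33), and in FGF9 cultures over time for Slc32a1 (-1.44 to 0.056) and Slc6a5 (-1.57 to 0.38). The cause was not tested. Slc17a7 and Slc18a3 lay low on the scale and dropped out of the filter on low genes.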
